A study of Mus musculus with 2 samples.

Results

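Macrophages of embryonic skin are the subject here. They were taken by rule from single-cell RNA profiles of flank and dorsolateral mouse skin at embryonic stage E14.5. A barcode counted as a macrophage if it was not on the authors' list of dermal cells, had 1000 or more genes and under 10% mitochondrial UMIs (unique molecular identifiers, one for each captured transcript), and had at least 5 of the 8 genes C1qa, C1qb, C1qc, Csf1r, Mrc1, Pf4, Fcer1g and Tyrobp with 10 or more UMIs of them together. Barcodes with 2 or more of the mast cell protease genes Cma1, Cpa3, Mcpt4 and Tpsb2 were left out. The rule found 586 macrophages among 19514 barcodes, 277 of 9065 in the wildtype library and 309 of 10449 in the Wntless mutant library. The mutant library came from littermates in which a K14Cre transgene had been bred to Wntless fl/fl, a conditional allele of Wls, the carrier that Wnt ligands need to leave the cell. K14 is the keratin 14 promoter, active in keratinocytes, so macrophages are not the cells in which this Cre is driven. Each library pooled 2 to 3 embryos of 1 genotype, dissociated with trypsin and sorted with the DNA dye DAPI. The labels do not say whether the wildtype embryos carried either allele. With 1 library per genotype there is no replicate and no test. Every interval below is a 95% interval for counting error only, and genotype, embryo pool and library cannot be told apart.

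Skin macrophages enter the embryonic skin before hair follicles form, from the yolk sac and later from fetal liver monocytes. They depend on the receptor encoded by Csf1r, engulf dying cells and debris, and take up haemoglobin and iron. In adult connective tissue, macrophages rich in Lyve1, Folr2 and Timd4 are commonly described as long-lived residents, and those rich in Ccr2 and major histocompatibility complex (MHC) class II as more recent descendants of blood monocytes. The C1q genes encode the recognition part of the first complement component, Mrc1 the mannose receptor CD206, Pf4 a chemokine made by platelets and some macrophages, and Fcer1g and Tyrobp signalling adaptors.

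The macrophages made up 3.57% (interval 3.17 to 4.01) of the 7764 wildtype barcodes that passed the gene and mitochondrial filter and 4.19% (3.75 to 4.67) of the 7373 mutant ones. Off the dermal list the shares were 11.2% (10.02 to 12.6) and 13.2% (11.8 to 14.6), and both pairs of intervals overlapped. The median macrophage held 17351 UMIs and 3955 genes in the wildtype library and 25527 UMIs and 4729 genes in the mutant library, so the mutant cells were sequenced more deeply. All 8 genes of the rule were detected in 241 of 277 wildtype and 267 of 309 mutant macrophages. Just inside the rule, 15 wildtype and 11 mutant barcodes had exactly 5 of the 8, with a median of 61 and 89 UMIs of them. Just outside, 10 and 10 barcodes had 4 of the 8 with enough UMIs, and their median was 65.5 and 94. The mast cell genes removed 2 wildtype and 4 mutant barcodes, and the dermal list removed 2 and 0. The libraries shared 19 barcodes, of which 0 were macrophages in both.

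The label was held up against genes that the rule does not use. Adgre1, which encodes the macrophage surface protein F4/80, stood at 152 CPM in wildtype and 192 CPM in mutant macrophages (CPM being a gene's UMIs over a class of cells, scaled to the same class total throughout), 335 and 259 times its level in all other barcodes that passed the filter. All 24 of 24 macrophage identity genes were at least 1.5-fold above those other barcodes in both libraries. This was so for 19.9% of the 11705 genes with 20 or more macrophage UMIs, and 22.7% were as far below. Of lists for related cell types, 7 of 10 measured microglia-associated genes, 4 of 8 monocyte genes, 3 of 5 dendritic cell genes and 0 of 7 Langerhans cell genes were above in the same way. Fcrls, a microglia-associated gene, stood at 280 and 316 CPM. Several genes that define those types were at or near 0. Cd207 (langerin, the Langerhans cell lectin) and Sall1 (a microglial transcription factor) had 0 UMIs in either library, and Flt3, the dendritic cell receptor, had 0 and 1. Vsig4, which belongs to the list of resident scavenger genes instead, also had 0 UMIs in either library. The members were chosen on values of these same cells, so their levels are descriptions.

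Promoter sequence is shown for 3 of these genes, to set the strong cell type difference beside the DNA before their start. PU.1, encoded by Spi1, is the transcription factor that macrophage genes commonly need, and its core motif reads GAGGAA, or TTCCTC on the other strand. The windows are the 250 bases before the RefSeq start (GRCm38.p6), printed 5′ to 3′ along the gene with each core match in capitals. The 3 genes were chosen because their windows lie outside the GENCODE gene. They are C1qb (chr4:136886201-136886450, minus strand), Pf4 (chr5:90772185-90772434, plus strand) and Stab1 (chr14:31168642-31168891, minus strand), which encodes the scavenger receptor stabilin 1.
C1qb: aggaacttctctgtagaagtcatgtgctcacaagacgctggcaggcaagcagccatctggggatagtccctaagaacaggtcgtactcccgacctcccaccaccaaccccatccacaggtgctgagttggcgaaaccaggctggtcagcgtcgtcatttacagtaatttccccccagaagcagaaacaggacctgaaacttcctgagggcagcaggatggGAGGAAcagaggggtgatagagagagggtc
Pf4: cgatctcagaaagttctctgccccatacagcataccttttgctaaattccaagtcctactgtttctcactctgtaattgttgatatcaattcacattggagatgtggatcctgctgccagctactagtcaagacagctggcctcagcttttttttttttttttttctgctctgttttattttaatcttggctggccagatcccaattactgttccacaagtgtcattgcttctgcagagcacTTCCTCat
Stab1: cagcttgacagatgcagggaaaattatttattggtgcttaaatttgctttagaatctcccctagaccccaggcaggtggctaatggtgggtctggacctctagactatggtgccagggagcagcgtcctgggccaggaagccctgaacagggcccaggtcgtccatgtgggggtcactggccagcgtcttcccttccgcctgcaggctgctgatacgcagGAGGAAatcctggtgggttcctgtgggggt
Each of these windows holds 1 match. Among the 25 genes furthest above other barcodes, 17 had a window in the RefSeq table and 10 of these held the motif, and among the top 60 genes 18 of 40 (45%), against 23.1% of all 27025 genes with a window. In the windows of Folr2, Ms4a7, Fcer1g and Ccr2 there was no match. A match is a description of the letters and not a measured site of binding.

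A share of the barcodes carried transcripts of a second cell type, and this sets how the remaining values can be read. Dermal matrix genes, 16 collagens and other products of fibroblasts, made up over 0.2% of the UMIs in 60 wildtype macrophages (21.7%, 17.0 to 27.0) and 30 mutant ones (9.71%, 6.65 to 13.6). Their doublet scores were in the top 8% of the library for 57 of the 60 and 28 of the 30, and their median depth was 30191.5 and 39579.5 UMIs. Between these barcodes and the rest lay a gap, since no wildtype macrophage and only 6 mutant ones had between 0.05% and 0.2%. Mast cells (8.33% and 13.4%), endothelial cells (13.4% and 6.45%) and keratinocytes (14.2% and 7.10%) also held such barcodes. Their share was therefore higher in the wildtype than in the mutant library for macrophages, endothelial cells and keratinocytes, and lower for mast cells.

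Col1a1, which encodes a chain of type I collagen, was used to check for dermal RNA, free or from mixed barcodes. Summed over all macrophages it stood at 703 CPM in wildtype and 302 CPM in mutant, 22.4% and 6.40% of its level in the dermal cells. Of its 3914 and 2630 UMIs, 59 and 119 lay in unmixed macrophages, so the sums came mostly from mixed barcodes. Without the mixed barcodes Col1a1 was at 22.0 and 24.6 CPM, 0.701% and 0.521% of the dermal level. Erythroid barcodes, which should make no collagen, held 1.01% and 1.08% of it. Their levels were scaled over all UMIs, most of them haemoglobin, so they are not on a like measure with macrophages. Unmixed cells were chosen for few dermal matrix UMIs, Col1a1 included, so their low level was fixed in part by that choice. For Col6a3 the unmixed level was 2.02% and 1.29% of the dermal one.

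Haemoglobin marked a second set of macrophages. Over 1% of UMIs came from haemoglobin genes in 47 wildtype (17.0%, 12.7 to 21.9) and 75 mutant macrophages (24.3%, 19.6 to 29.5), with a median of 24.9% and 31.1% of the UMIs in those cells. The same threshold was passed by 2.08% and 2.68% of mast cells, 2.99% and 1.08% of endothelial cells, 1.94% and 1.29% of keratinocytes and 0.170% and 0.378% of dermal cells. Haemoglobin-rich barcodes were therefore several times as frequent among macrophages as among each of the other classes in both libraries. They were separated from the rest, since no wildtype macrophage held between 0.5% and 2% haemoglobin and no mutant one between 0.5% and 10%. Erythroid barcodes themselves numbered 643 and 1415, and the mutant library, with more of them, also had the higher haemoglobin-rich share. Whether that difference between libraries bears on the macrophages was not tested.

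**Figure D1:**
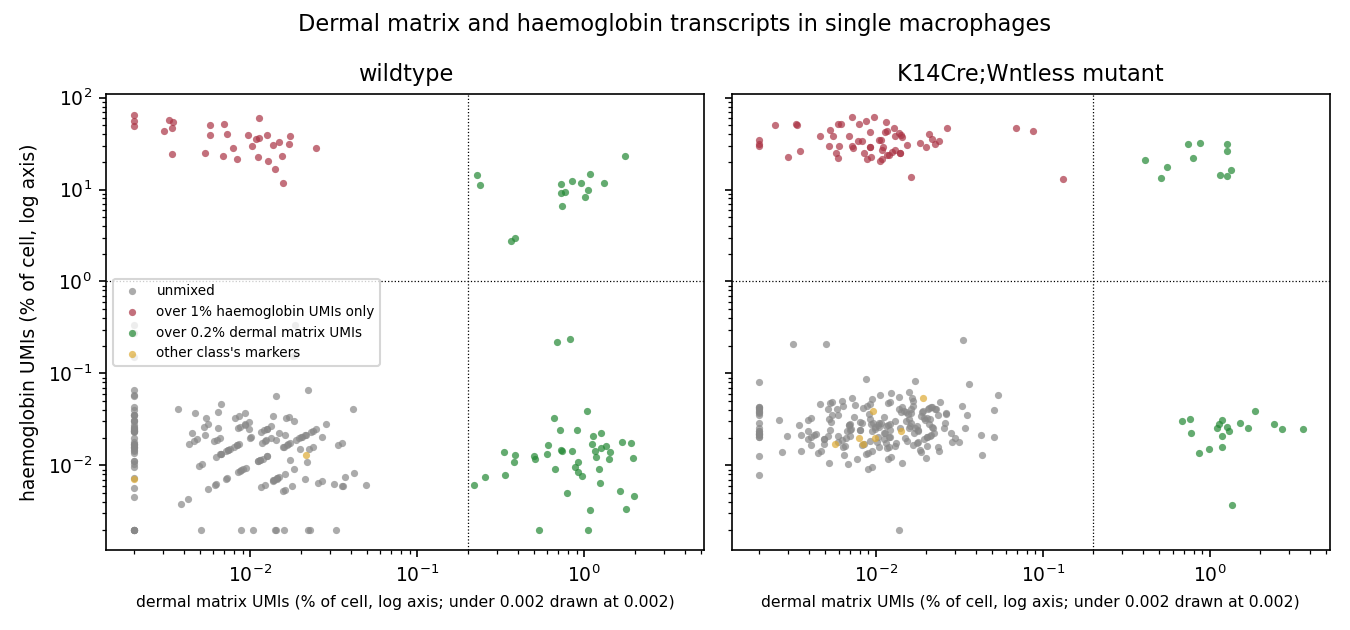
Each point is 1 macrophage, with the percent of its UMIs from 16 dermal matrix genes on the x axis and from haemoglobin genes on the y axis, both logarithmic, for the wildtype and the mutant library. The dotted lines at 0.2% and 1% separate distinct clouds, with 60 wildtype and 30 mutant macrophages to the right of the first and 47 and 75 above the second.

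The haemoglobin-rich macrophages without transcripts of other types had nearly the macrophage content of the unmixed ones. Outside haemoglobin they held a median of 14230 UMIs in wildtype, beside 14386 in unmixed macrophages, and 22419 beside 22742.5 in mutant. Their UMIs of the 8 rule genes were 202 beside 220 and 315 beside 343.5. Of all 47 and 75 haemoglobin-rich macrophages, 18 and 16 had doublet scores in the top 8%, and 15 and 11 held dermal transcripts as well. The globin mix was that of the adult-type genes. Hbb-bs made up 49.7% of the haemoglobin UMIs in wildtype and 54.3% in mutant, Hba-a1 28.7% and 26.4%, and Hbb-bt 20.8% and 18.2%. Embryonic Hbb-y gave 6 UMIs in wildtype. In the mutant it gave 5485, of which 5471 lay in 1 cell.

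Erythroid genes other than globins were present too, in the 31 wildtype and 61 mutant haemoglobin-rich macrophages without transcripts of other types. Alas2, the first enzyme of haem synthesis in red cells, had 370 UMIs in the haemoglobin-rich and 3 in the unmixed wildtype macrophages, and 856 and 1 in the mutant ones. The anion exchanger gene Slc4a1 had 54 against 0 and 105 against 0. Car2, a carbonic anhydrase gene, was 85.8-fold and 59.3-fold higher. The erythroid transcription factor genes had few UMIs, with 2 of Klf1 in wildtype and 4 in mutant, and 0 and 3 of Gata1. In erythroid barcodes Klf1 stood at 2.73 and 1.53 CPM and Gata1 at 0.586 and 0.648 CPM. Those levels were scaled over all UMIs, of which haemoglobin made up a median of 93.8% and 94.4%. They are therefore not on a like measure with the haemoglobin-rich macrophages.

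The macrophage genes themselves were close to their unmixed levels in these cells. C1qa stood at 1.15 and 0.961 times, Mrc1 at 0.914 and 0.990 times, and Lyve1 at 0.700 and 1.09 times the unmixed value. Among 24 macrophage identity genes 0 were 1.5-fold higher or lower in both libraries, and the same held for 17 resident macrophage genes and 30 lysosomal genes. Over all 8663 genes compared, 1.85% were higher and 1.42% lower by that rule. Of 52 genes of the G2 and M phases of the cell cycle, 8 were higher in both libraries and 0 lower, and of 42 S phase genes 1 was higher. Hmox1, the haem oxygenase that opens the haem ring, was not higher in them. It stood at 135.5 CPM of non-haemoglobin UMIs against 694.5 in unmixed wildtype cells and at 279 against 282.9 in mutant cells.

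Removing both kinds and barcodes with 10 or more UMIs of another class's markers left 183 unmixed wildtype and 208 unmixed mutant macrophages. Their median depth was 14387 and 22747 UMIs. What this left of other types' markers differed by type. The removal itself lowers markers that it uses, so these values are descriptions. Summed keratinocyte markers went from 169 to 13.5 CPM in wildtype and from 16.2 to 10.2 CPM in mutant, and mural cell markers from 32.5 to 0.747 and from 14.49 to 2.69 CPM. Endothelial markers went from 151 to 74.0 CPM and from 90.3 to 64.4 CPM. In the mutant, muscle markers (24.5 and 22.2 CPM), glia and melanoblast markers (26.7 and 26.5 CPM) and megakaryocyte markers (11.4 and 12.2 CPM) stayed near their level. These thresholds were set after the data were seen. In what follows genotype ratios are given for all macrophages and again for unmixed ones.

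Many genes stood far above their level in all other skin barcodes. Fcna, which encodes ficolin A, a lectin that starts the complement cascade, stood at 41.0 CPM in wildtype and 64.5 CPM in mutant, 2075 and 2853 times the other barcodes. Folr2, a folate receptor gene, was at 107 and 153 CPM (1351-fold and 1350-fold), and Ms4a7, a membrane protein gene, was 1404-fold and 1552-fold above. Lyve1, a hyaluronan receptor shared with lymphatic vessels, stood at 954 and 1107 CPM, 552 and 493 times the other barcodes. In endothelial cells Lyve1 was at 89.8 and 110.5 CPM. F13a1, the coagulation factor XIII subunit A, was 618-fold and 403-fold above, and Stab1 376-fold and 258-fold. Among chemokines, Ccl24 was 531-fold and 658-fold above and Ccl12 568-fold and 465-fold. None of these genes belongs to the rule, and each stood far above the other barcodes in both libraries.

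Of the rule genes, C1qa, C1qb, C1qc, Pf4 and Mrc1 were between 711-fold (Mrc1, wildtype) and 1340-fold (C1qa, wildtype) above the other barcodes. Csf1r was 256-fold and 238-fold above. The adaptor genes were far less selective. Fcer1g was 33.7-fold and 24.5-fold above all other barcodes, but 1.72-fold and 2.19-fold above mast cells, and Tyrobp 1.70-fold and 1.78-fold above mast cells.

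Gene groups showed what these macrophages carry. Of 11 measured Fc receptor and adaptor genes, 11 were at least 1.5-fold above the other barcodes in both libraries. The same held for 18 of 18 measured resident scavenger genes, from a list of 21 that includes Vsig4. It also held for 11 of 13 scavenger receptor genes, 14 of 15 inhibitory receptor genes and 18 of 20 toll-like receptor and inflammasome genes. For lysosomal genes the count was 25 of 30, with Lgmn, an asparagine-specific protease gene, at 538 and 683 CPM (34.4-fold and 49.8-fold) and Ctsb, cathepsin B, at 1440 and 1862 CPM (12.8-fold and 15.6-fold). In the iron and haem group 16 of 17 were above, with the ferritin light chain gene Ftl1 at 8219 and 8761 CPM (3.12-fold and 3.29-fold). Apoe, the lipid carrier, was at 4701 and 6174 CPM, 46.0-fold and 68.3-fold above. All of these shares exceeded the 19.9% over all genes.

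Cell cycle groups had few genes above the other barcodes. Of 52 G2 and M phase genes 0 were above and 9 below the other barcodes, and of 42 S phase genes 3 were above and 1 below. Of 26 measured genes for Wnt receptors and secretion, 2 were above and 15 below, where 22.7% of all genes were below. Mast cells are another blood lineage in the tissue. Against them, 22 of 24 identity and 24 of 30 lysosomal genes were at least 1.5-fold higher in both libraries, beside 23.5% of all genes. Glycolysis genes went the other way, with 3 of 20 higher and 14 lower than in mast cells, beside 11.3% of all genes lower.

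Shares of positive cells were taken after each cell was thinned to 9000 UMIs, which left 259 wildtype and 302 mutant macrophages and left out 18 and 7. Lyve1 was detected in 71.0% (65.1 to 76.5) of wildtype and 73.5% (68.2 to 78.4) of mutant macrophages, against 0.45% and 0.30% of dermal cells. F13a1 was found in 96.1% and 96.4%, Cx3cr1, the fractalkine receptor gene, in 90.7% and 94.4%, and Adgre1 in 71.8% and 77.5%. Folr2 was found in 50.6% and 60.6%, and P2ry12, a purine receptor gene known from microglia, in 20.8% and 24.2%. Cd163, the receptor for haptoglobin-bound haemoglobin, was found in 8.88% and 8.94%. Cx3cr1 separated macrophages less well from mast cells, of which 70.6% and 60.2% held it. Cd207, Sall1 and Vsig4 were at 0 of 259 and 0 of 302, which allows shares up to 1.16% and 0.993%.

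Ccr2, the receptor for the monocyte-attracting chemokine encoded by Ccl2, was found in 15.4% of wildtype and 19.9% of mutant macrophages, and in 4.90% and 8.60% of mast cells. Ccr2 and Lyve1 were seldom found in the same cell. Ccr2 was detected in 2 of 184 Lyve1-positive wildtype cells (1.09%) and 7 of 222 mutant ones (3.15%). Among Lyve1-negative cells it was detected in 38 of 75 (50.7%) and 53 of 80 (66.2%). In both libraries Ccr2 was thus found more often in Lyve1-negative than in Lyve1-positive cells, and many Lyve1-negative cells held neither transcript. Without thinning, 5 of 277 and 14 of 309 macrophages held both transcripts.

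Folr2 and Cd163 went with Lyve1 in both libraries. Timd4, whose shares are given below, did so clearly only in the mutant library. In Lyve1-positive cells Folr2 was found in 65.8% (wildtype) and 74.3% (mutant), and in Lyve1-negative ones in 13.3% and 22.5%. Cd163 was found in 11.96% and 11.7% of Lyve1-positive and 1.33% and 1.25% of Lyve1-negative cells. Mki67, a gene of dividing cells, was found in 54.9% and 45.1% of Lyve1-positive and 44.0% and 41.2% of Lyve1-negative cells. Transcripts of dividing cells were thus found in both sets of cells.

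**Figure D2:**
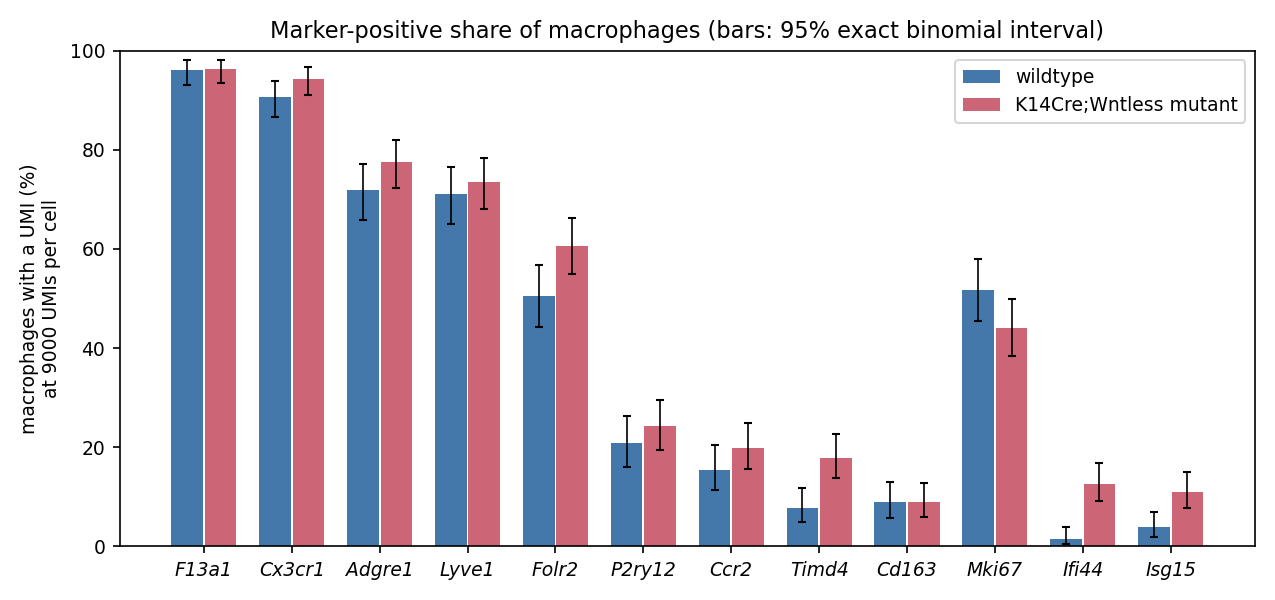
The y axis gives the percent of macrophages with a UMI of each gene after thinning to 9000 UMIs per cell, for 259 wildtype and 302 mutant macrophages, with 95% exact binomial intervals. The pairs of bars are close for most genes. The Timd4 intervals (4.78 to 11.7% and 13.7 to 22.7%) do not overlap, and neither do those of Ifi44.

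Clustering of the 586 macrophages gave 7 groups, named here by number and leading genes. Cluster 0 held all 90 barcodes with dermal transcripts, 60 wildtype and 30 mutant. Cluster 4, led by erythroid genes such as Car2 and Hba-a2, held 24 wildtype and 41 mutant cells. Cluster 6, led by cell cycle genes such as Kif11 and Ndc80, held 6 and 14. All cells of both were haemoglobin-rich. Clusters 1 (17 and 15 cells) and 5 (29 and 26 cells) were led by G2 and M phase genes such as Aspm and Hmmr and by S phase histone genes. The remaining 2 groups differed in Lyve1 and Ccr2.

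Cluster 2 was the largest, with 104 wildtype (37.5%) and 128 mutant macrophages (41.4%). Lyve1 stood at 1753 CPM in it and at 741 CPM in the rest, and Ccr2 at 13.9 and 109 CPM. Clusters 1 (2061 CPM) and 5 (1714 CPM) were as high in Lyve1. Cluster 3 held 37 wildtype (13.4%) and 55 mutant macrophages (17.8%). Its Ccr2 level was 422 CPM against 20.7 CPM in the rest, and its Lyve1 level 45.02 against 1222 CPM. The lysozyme gene Lyz2 (2037 against 440 CPM), Plac8 (168 against 10.1 CPM) and Cd74, the invariant chain of MHC class II (275 against 32.3 CPM), were higher in it as well. These genes define the clusters, so the contrasts are no findings. At a resolution of 1.0 there were 9 clusters, and with 500 variable genes 7, with an adjusted Rand index against these clusters of 0.564 and 0.724, so cells were grouped differently in part.

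**Figure D3:**
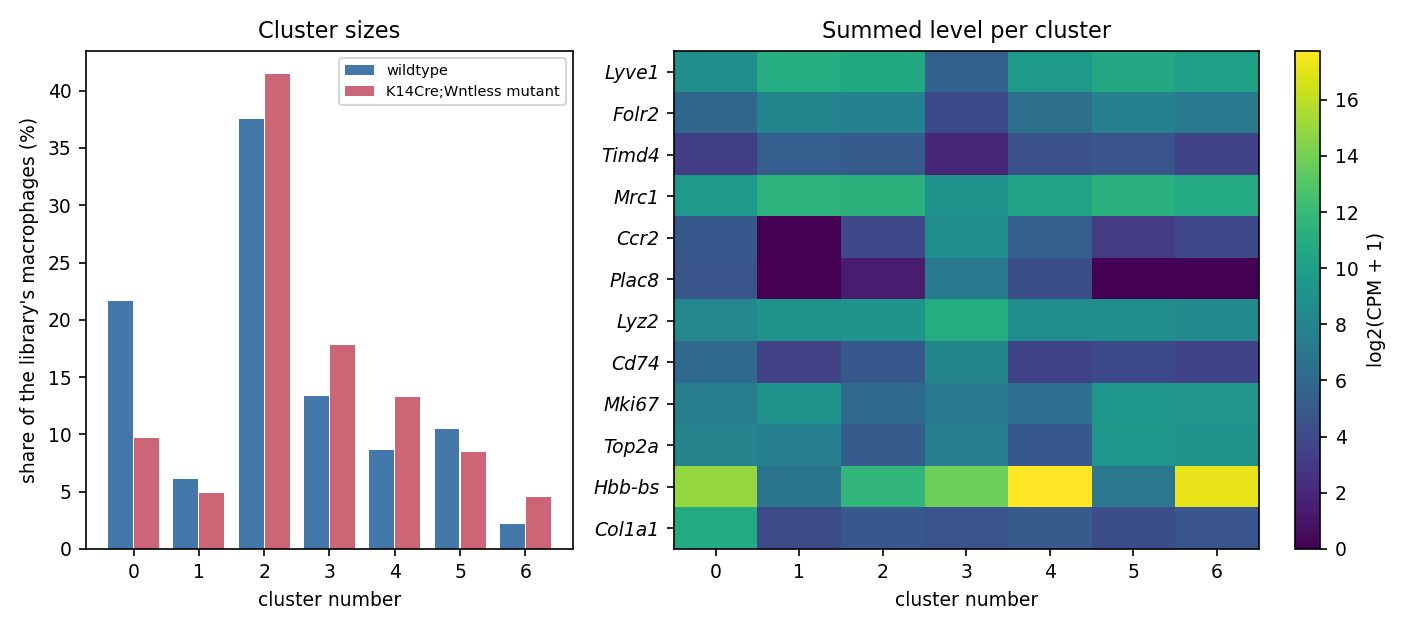
The left panel gives the percent of each library's macrophages in clusters 0 to 6, and the right panel the summed level of selected genes per cluster as log2(CPM + 1). Cluster 2 (37.5% of wildtype and 41.4% of mutant cells) is high in Lyve1, as are clusters 1 and 5, cluster 3 (13.4% and 17.8%) is high in Ccr2, and cluster 0 takes 60 wildtype and 30 mutant cells.

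Between the genotypes, 514 of 11705 measured genes (4.39%) were at least 1.5-fold higher and 1552 (13.3%) at least 1.5-fold lower in mutant macrophages. Among unmixed macrophages the counts were 565 of 10086 (5.6%) higher and 448 (4.44%) lower. Every list count between the genotypes below is to be read beside these shares. Higher genes made up 24.9% of those past the fold in the first comparison. After scaling without the 50 highest genes the numbers were 702 higher and 1302 lower, a share of 35.0%. The median ratio over all measured genes was -0.09 on the log2 scale for all macrophages and -0.02 for unmixed ones. More genes were lower than higher over all macrophages, and fewer were lower than higher over unmixed ones.

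**Figure D4:**
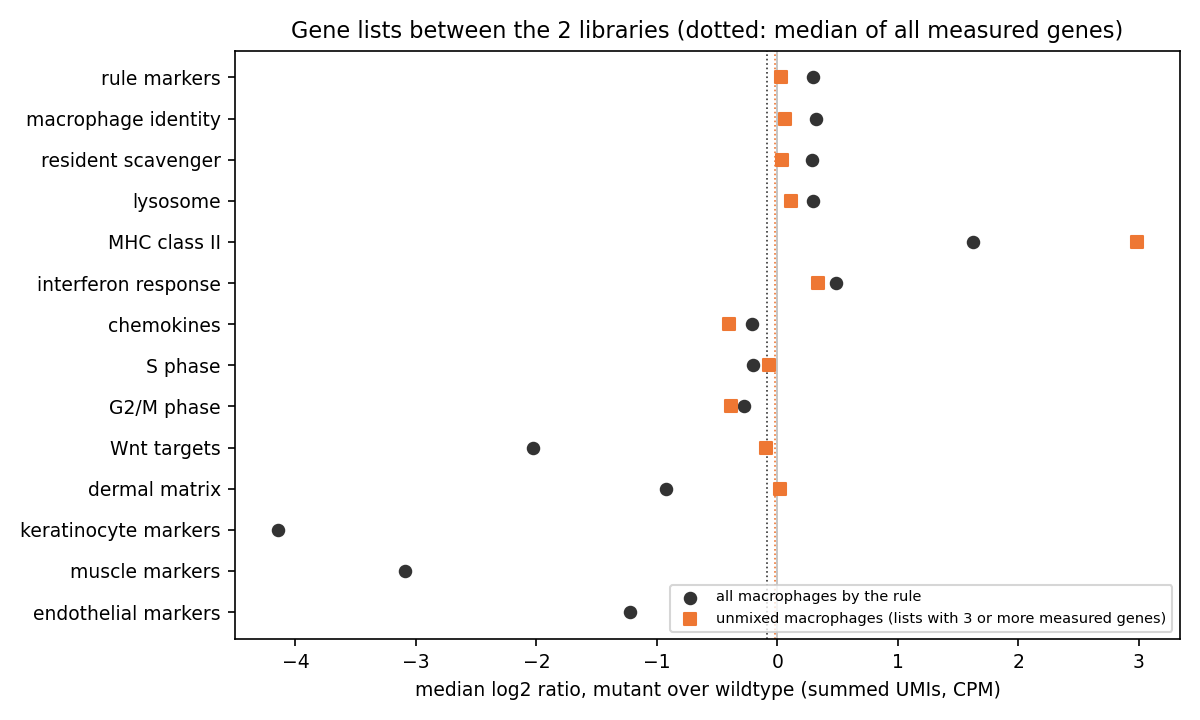
The x axis gives each gene list's median log2 ratio of mutant over wildtype CPM, for all macrophages and for unmixed macrophages, and the dotted lines give the medians over all measured genes (-0.09 and -0.02). MHC class II lies furthest to the right (1.62 and 2.98), with some of its genes measured only through mutant cells. Over all macrophages the keratinocyte, muscle and Wnt target lists lie far to the left. Among unmixed ones the Wnt target list is at -0.09. The keratinocyte and muscle lists have no unmixed point, since only 1 gene of each was measured.

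The deleted gene was at similar levels in macrophages of both libraries. Wls stood at 71.2 CPM in wildtype and 77.7 CPM in mutant macrophages, a log2 ratio of 0.13 (interval -0.05 to 0.31), and in unmixed macrophages the ratio was 0.08 (-0.15 to 0.32). In keratinocytes, where the Cre is driven, it was at 130 and 7.37 CPM. Wnt target genes were lower in the mutant when all macrophages were counted, 11 of 13 measured, with a median of -2.03. Lef1, a transcription factor of the Wnt pathway, had 58 UMIs in wildtype and 3 in mutant, Nkd1 68 and 16, Wif1 61 and 13, and Dkk4 99 and 0. Among unmixed macrophages only 4 target genes were measured, with 0 past the fold and a median of -0.09. Unmixed macrophages held 2 of the 58 wildtype UMIs of Lef1, 1 of the 68 of Nkd1, 1 of the 61 of Wif1 and 0 of the 99 of Dkk4. Myc (-0.01, unmixed -0.16) and Ccnd1 (-0.24, unmixed -0.23) stayed within the fold.

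The identity of the macrophages was nearly the same in both libraries. Of 24 identity genes 2 were 1.5-fold higher and 0 lower in the mutant (median 0.32), and among unmixed cells 0 of 24 in either direction (median 0.06). C1qa stood at 662 and 957 CPM (log2 ratio 0.53, unmixed 0.29), Csf1r at 369 and 472 CPM (0.36, unmixed 0.06), and Mrc1 at 1558 and 1808 CPM (0.22, unmixed -0.07). Pf4 stood at 3292 and 3224 CPM (-0.03, unmixed -0.35). Lyve1 had a ratio of 0.21 over all and -0.18 over unmixed macrophages, so its direction depended on the mixed barcodes. Lysosomal genes behaved alike, with 1 of 30 higher and 0 lower in both settings.

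Of 18 measured resident genes 5 were higher and 0 lower over all macrophages (median 0.29), beside 4.39% and 13.3% of all genes. Of 17 measured in unmixed cells 2 were higher and 0 lower (median 0.04), beside 5.6% and 4.44%. Those 2 were Timd4 and Cbr2. Timd4 (ENSMUSG00000055546, GRCm38 chromosome 11, 46810800 to 46844332, plus strand) encodes the TIM-4 receptor for phosphatidylserine on dying cells. It had 67 UMIs in 44 wildtype macrophages and 214 UMIs in 118 mutant ones, 12.04 and 24.6 CPM, a log2 ratio of 1.03 (unmixed 0.87). At equal depth 7.72% (4.78 to 11.7) of wildtype and 17.9% (13.7 to 22.7) of mutant macrophages were Timd4-positive, against 0% and 0.043% of dermal cells, and among unmixed cells 10.3% and 23.4%. Within cluster 2 it was at 24.6 (17.22 to 34.03) and 38.5 CPM (31.68 to 46.45), and these intervals overlapped. In that cluster 20 of 104 and 56 of 128 cells held it without thinning, and mutant macrophages were sequenced more deeply. At equal depth Timd4 was found in 9.24% and 23.4% of Lyve1-positive cells, and in 4.0% and 2.5% of Lyve1-negative ones. Cbr2, a carbonyl reductase gene, stood at 12.9 and 27.1 CPM (1.07, unmixed 0.94).

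MHC class II genes were higher in mutant macrophages, 5 of 6 measured over all cells (median 1.62) and 6 of 6 over unmixed ones (median 2.98). Of all genes, 4.39% and 5.6% were higher in these settings. The list has 7 genes, and H2-Aa and H2-Eb1 (3 and 61 UMIs) passed the minimum of 20 UMIs only through mutant cells. Among unmixed cells H2-DMa did so too, so the counts lend no support of their own. H2-DMa (ENSMUSG00000037649, GRCm38 chromosome 17, 34119541 to 34139101, plus strand), which encodes a chain of the peptide-loading chaperone, had 26 UMIs in 20 wildtype macrophages and 151 in 70 mutant ones, a log2 ratio of 1.89 (1.29 to 2.55, unmixed 2.08). Cd74 had 295 UMIs in 76 cells and 677 in 125 cells (0.55, unmixed 1.02). The classical chains were confined to a few cells. H2-Aa had 17 UMIs in 4 wildtype cells and 106 in 5 mutant cells, 98.1% of the latter in 3 cells, and H2-Ab1 26 in 3 and 92 in 5 cells. Of the wildtype H2-Aa UMIs 14 lay in 1 cell of cluster 0, which the unmixed set leaves out. Its unmixed ratio therefore rests on few wildtype UMIs. Of the mutant H2-Aa UMIs 92 lay in 2 cells of cluster 3. In cluster 3 H2-DMa was at 19.5 and 66.2 CPM (9 of 37 and 37 of 55 cells) and Cd74 at 178 and 315 CPM. H2-T23, a nonclassical class I gene, was higher as well (1.41, unmixed 1.15), and 1 of 10 class I genes passed the fold in unmixed cells.

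Interferon-response genes were mixed in direction. Over all macrophages 6 of 19 were higher and 2 lower (median 0.49), beside 4.39% and 13.3% of all genes. Over unmixed ones 5 of 18 were higher and 1 lower (median 0.34), beside 5.6% and 4.44%. Ifi44 had 20 UMIs in 13 wildtype and 151 in 68 mutant macrophages (2.27, unmixed 1.80), and the related Ifi44l 15 UMIs in 15 and 99 in 74 cells (2.08, unmixed 2.17). At equal depth Ifi44 was found in 1.54% (0.422 to 3.91) of wildtype and 12.6% (9.06 to 16.9) of mutant macrophages, and in 0.1% and 0.064% of dermal cells. Isg15, a ubiquitin-like modifier, stood at 7.19 and 15.6 CPM (1.12, unmixed 1.14) and Irf7, an interferon-induced transcription factor, at a ratio of 0.96 (unmixed 0.77). Cxcl10, an interferon-induced chemokine, went the other way at 7.73 and 4.14 CPM (-0.90, unmixed -1.42). Ifi44 was higher in the mutant in cluster 3, at 11.4 and 40.8 CPM (7 and 61 UMIs). In cluster 2 it was at 6.15 and 11.9 CPM (9 and 34 UMIs). The cluster 2 intervals overlapped (2.81 to 11.67 and 8.25 to 16.65 CPM).

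Among secreted proteins, Il1rn and Spp1 had the highest ratios. Il1rn, the antagonist of the interleukin 1 receptor, had 6 UMIs in 6 wildtype macrophages and 164 in 25 mutant ones, a log2 ratio of 4.13 (2.98 to 5.60, unmixed 3.85), but 3 cells held 68.9% of the mutant UMIs. Spp1, which encodes osteopontin, had 115 UMIs in 29 cells and 919 in 57 cells, 20.7 and 106 CPM, a log2 ratio of 2.35 (2.07 to 2.65, unmixed 2.41), with 46.1% in 3 cells. Within cluster 2 Spp1 was at 50.5 and 238 CPM. Both genes were therefore carried by a minority of macrophages, and a few cells set much of the sums. Rgs1, an inhibitor of G protein signalling, had 51 UMIs in 21 and 301 in 43 cells (1.92, unmixed 1.94). Other receptors higher in the mutant were spread over more cells, as Siglece, an inhibitory lectin, with 20 UMIs in 19 and 90 in 74 cells (1.53, unmixed 0.997) and Cd300lf, a lipid-binding receptor, with 23 and 77 cells (1.37, unmixed 1.27). AI506816, at 1.59 (unmixed 1.75), was also higher in mutant mast cells (1.23) and dermal cells (0.92).

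**Figure D5:**
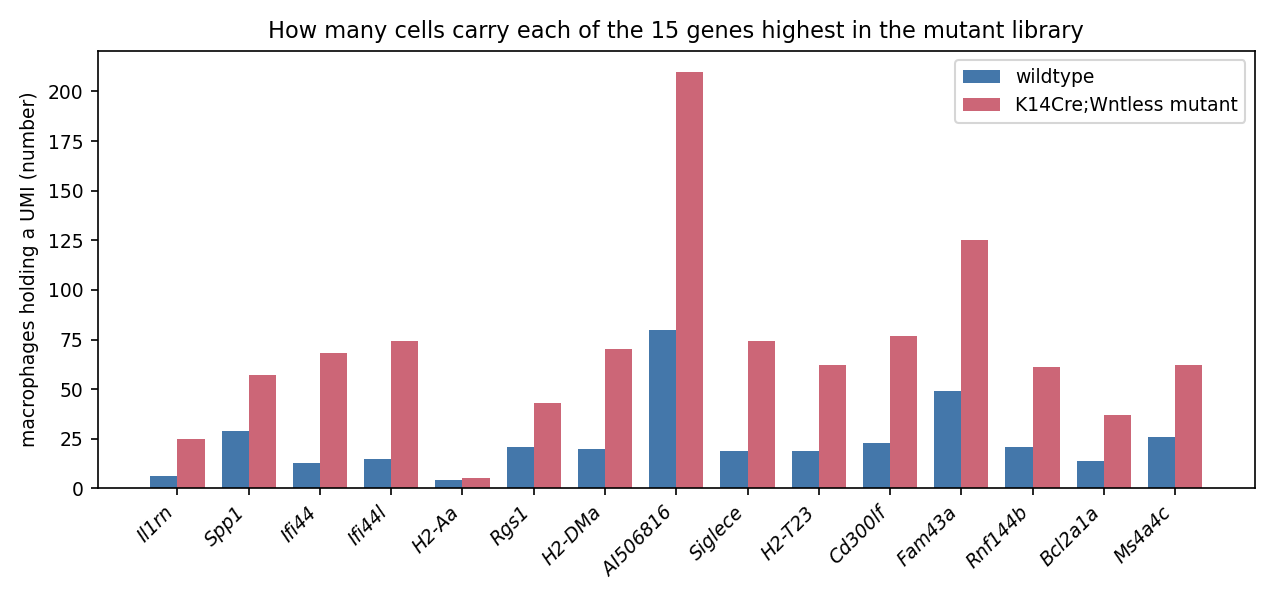
For the 15 genes with the highest mutant over wildtype ratio, the y axis gives the number of macrophages with at least 1 UMI in each library, out of 277 wildtype and 309 mutant cells and without thinning. H2-Aa was found in 4 and 5 cells, while Ifi44 was found in 13 and 68 and H2-DMa in 20 and 70.

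Chemokines leaned to lower values among unmixed macrophages, with 0 of 12 higher and 4 lower (median -0.40), beside 5.6% and 4.44% of all genes. Over all macrophages 2 of 14 were higher and 3 lower (median -0.21), beside 4.39% and 13.3%. Ccl4 stood at 92.9 and 75.6 CPM (-0.30, unmixed -0.60), Ccl3 at 101 and 88.7 CPM (-0.19, unmixed -0.53) and Ccl2 at 402 and 360 CPM (-0.16, unmixed -0.39). Ccl9 was higher at 60.03 and 100.3 CPM (0.74, unmixed 0.56). Most members thus stayed within 1.5-fold.

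Summed over macrophages, Hmox1 was lower in the mutant, though not in every cluster, and it was spread over many cells. The gene (ENSMUSG00000005413) lies on GRCm38 chromosome 8, 75093621 to 75100589, plus strand. It had 2115 UMIs in 227 wildtype cells and 1967 in 272 mutant ones, 380 and 226 CPM, a log2 ratio of -0.75 (-0.84 to -0.66). Unmixed macrophages showed 694 and 283 CPM, a ratio of -1.30. The 3 highest cells held 19.6% and 20.5% of the UMIs. By cluster it was at 780 and 334 CPM in cluster 2, 1019 and 238 CPM in cluster 1 and 961 and 419 CPM in cluster 5. In the haemoglobin-rich clusters 4 and 6 the order was the opposite, at 72.7 and 166 CPM and at 73.7 and 212 CPM. In cluster 0 it was at 92.05 and 109.8 CPM and in cluster 3 at 58.6 and 76.9 CPM. Both of these were low in each library, with overlapping intervals. Dermal cells had a ratio of -0.34. Other members of the iron and haem group differed in direction. Hp, which encodes haptoglobin, was at 5.21 and 10.8 CPM (1.05, unmixed 0.30), Blvrb, a biliverdin reductase gene, at 609 and 584 CPM (-0.06, unmixed -0.43) and Slc11a1, an iron transporter of the phagosome, at 30.2 and 48.1 CPM (0.67, unmixed 0.30).

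Most cell cycle genes stayed within 1.5-fold between the libraries. Of 52 G2 and M phase genes 0 were higher and 5 lower (median -0.27), and among unmixed cells 0 higher and 8 lower (median -0.38). The share lower over all macrophages was below the 13.3% of all genes, and over unmixed ones above the 4.44% of all genes. Cenpf, a centromere protein gene, stood at 179 and 106 CPM (-0.75, unmixed -0.88), Cks2 at 192 and 122 CPM (-0.65, unmixed -0.36) and Ube2c at 289 and 203.5 CPM (-0.50, unmixed -0.48). Of 42 S phase genes 0 passed the fold in either direction (median -0.20, unmixed -0.07). At 9000 UMIs per cell, 60.6% (54.4 to 66.6) of wildtype and 48.3% (42.6 to 54.1) of mutant macrophages held 3 or more of 8 G2 and M phase genes, and 55.2% and 46.3% of unmixed ones. The same share was 48.0% and 27.2% in dermal cells and 72.7% and 66.1% in mast cells, lower in the mutant library in each class.

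Many of the lowest ratios over all macrophages belonged to transcripts of other cells. Among keratin genes, Krt14 had 292 UMIs in 16 wildtype cells and 1 in 1 mutant cell, and 3 and 1 UMIs in unmixed cells. Of 10 measured keratinocyte markers 10 were lower (median -4.14), of 7 muscle markers 7 (median -3.09), of 10 endothelial markers 7 (median -1.22) and of 16 dermal matrix genes 15 (median -0.92). Among unmixed macrophages 1 keratinocyte, 1 muscle and 2 endothelial markers were measured and 0 passed the fold, and of 10 measured dermal matrix genes 1 was higher and 2 lower (median 0.02). Tpm3-rs7, a tropomyosin-like gene, was different. It had 704 UMIs in 242 wildtype and 51 in 47 mutant macrophages (-4.43, unmixed -4.59), and its ratio was -4.43 in dermal and -4.38 in mast cells, so the difference was shared by all 3 classes.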

How the data were processed

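The deposited matrices hold UMI counts per gene and barcode of 1 wildtype and 1 Wntless mutant library, which the authors made, per the file headers, with Cell Ranger 6.1.2. The submitters' processing notes name mm10 and Seurat. For each library a list of dermal barcodes was deposited as well, and how it was made is not given in the sources used here. The libraries held 112593376 and 159841679 UMIs. The macrophage sums were 5564312 and 8696732 UMIs, which set the counting error.

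Per library, the UMIs of a class of cells were summed and scaled to a common class total (CPM), with exact Poisson intervals. Ratios have exact conditional binomial intervals, and shares exact Clopper-Pearson intervals. A gene counts as measured from 20 UMIs over the macrophages of both libraries, and "past the fold" means 1.5-fold. A gene at 0 was set against 3 counts over the class. Median list ratios keep such genes at that bound. Mast, endothelial, keratinocyte and erythroid barcodes (144 and 224, 67 and 93, 464 and 155, 643 and 1415) were chosen by marker rules, and 5300 and 5028 dermal cells came from the authors' list. Doublets were scored with Scrublet in scanpy 1.11.5, which called 3.22% and 2.77% of barcodes. None were removed in the main values. Macrophages were clustered on 1000 variable genes, 20 components and 15 neighbours at resolution 0.5, without batch correction. Scripts ran in Python 3.11.15 with numpy 2.4.6, scipy 1.17.1, pandas 2.3.3 and igraph 0.11.9, and were tested on simulated data.

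Named genes are the 15 highest and 15 lowest ratios among genes with 100 or more UMIs above the level that free dermal RNA gives, up to 4 per list by ratio and by level, the 25 highest over other barcodes, the rule genes, Wls and Col1a1. Not all are printed, and some genes are not reported here. Erythroid genes in haemoglobin-rich cells, Ifi44l, Lef1 and a few others were named after their values were seen. The members and the 51 gene lists were chosen with earlier results of these data known. Gene coordinates came from GENCODE mouse release M21 (GRCm38).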

Additional observations from a re-analysis of the deposited data

How the results depend on the processing

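Each genotype has 1 library, so no replicate could be left out. No paired analysis was possible because each genotype has 1 library. The macrophage share of barcodes was 11.2% (wildtype) and 13.2% (mutant) off the dermal list, and 2.36% and 2.82% for unmixed macrophages. Without high doublet scores it was 2.93% in wildtype. That setting left out 24.9% of wildtype and 13.3% of mutant macrophages, so the shares of the libraries lay further apart under it. Whether their intervals still overlap under it is not given here. The number of higher genes was 296 at 50 or more UMIs and 1902 with no minimum. The number of lower genes was 969 and 4725 under those minimums, 881 after thinning, 575 without high doublet scores, 674 without cycling cells, 499 without dermal-mixed cells and 448 in unmixed cells. Fewer genes are tested at 50 UMIs and more with no minimum, and for the other settings the cause was not tested.

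Some log2 ratios of mutant over wildtype had the opposite sign under another setting, and for these the cause was not tested. Without high doublet scores Ptgds was at 1.68, Pmel at 3.19, Apcdd1 at 0.62 and the glia and melanoblast list at 0.014. Without dermal-mixed cells Cav1 was at 2.92, Igfbp7 at 1.59, Crip2 at 2.48, Pdgfa at 0.45, S100a16 at 2.92, Gng11 at 1.17 and Col1a1 at 0.29, the dermal matrix list at 0.21 and the endothelial list at 2.24. In unmixed cells Pdgfa was at 1.67, Col1a1 at 0.16 and the dermal matrix list at 0.023. Without haemoglobin-rich cells Dct was at 2.02, S100a16 at 0.034 and the endothelial list at 1.11, and after thinning S100a16 was at 0.041. Without cycling cells Ccr2 was at -0.11, Cenpf at 0.34, Col1a1 at 1.14 and the dermal matrix list at 0.83. The Col1a1 level in wildtype macrophages was 2.63%, 16.1% and 0.701% of the dermal one without high doublet scores, with Col3a1 and in unmixed cells, and in mutant ones 0.912%, 6.67% and 0.521%. Depth limits genes under about 20 UMIs, whose intervals are wide. Over genes and settings, 520 single-gene ratios stayed within the counting interval of the reported value, 252 lay outside it and the 18 above changed sign from a value past 1.5-fold. The unmixed ratios of Lyve1 (0.21, unmixed -0.18) and Mrc1 (0.22, unmixed -0.07), which changed sign within 1.5-fold, are among the 252.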

Other observations

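Genes of the colony-stimulating factor axis were measured on both sides in these libraries. Csf1, a ligand of the receptor encoded by Csf1r, stood at 4.31 CPM in wildtype and 6.21 CPM in mutant macrophages and at 9.26 and 13.2 CPM in all other barcodes. Il34, the ligand made by keratinocytes in skin, was at 0.719 and 0.115 CPM in macrophages. Csf2rb2 stood at 5.75 and 11.5 CPM (log2 ratio 0.9996, unmixed 0.91), while Csf2ra was at 37.9 and 51.4 CPM (0.44, unmixed 0.24). Apoc1, an apolipoprotein gene, stood at 46.9 and 100.4 CPM (1.10, unmixed 0.89), and Abca1, a cholesterol exporter gene, at 182 and 289.5 CPM (0.67, unmixed 0.49).

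The gene model Gm10320 was chosen after its values were seen. It had 748 UMIs in 231 wildtype macrophages and 5 UMIs in 5 mutant ones, a log2 ratio of -7.87. Its ratio was -7.04 in dermal cells, -7.30 in mast cells and -6.72 in endothelial cells.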
